A study of Mus musculus with 2 samples.

Results

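The 7 genes followed here in single keratinocytes of large healed wounds code for proteins of the outermost epidermis: loricrin (Lor), filaggrin (Flg), filaggrin-2 (Flg2), hornerin (Hrnr), involucrin (Ivl), proline rich 9 (Prr9) and late cornified envelope 3D (Lce3d). They were taken by symbol from 2 matrices of 27998 gene rows, in which the 7 symbols have 13 rows. Flg alone has 7 rows, and its 6 smaller rows hold 20 UMIs in WT_LW and 19 in TLR9agonist_LW in all; rows of 1 symbol were summed. The members were chosen by their levels in keratinocytes, some lower and some higher in the treated library, so their levels and ratios below are a description.

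The upper keratinocytes of the epidermis replace their plasma membrane with the cornified envelope, a shell of proteins joined by transglutaminases. Involucrin is laid down early as part of the scaffold, loricrin is the main reinforcing protein added later, and the small proline-rich (Sprr) and late cornified envelope (Lce) proteins are further building blocks. Filaggrin, filaggrin-2 and hornerin belong to the S100 fused-type proteins, which are stored in keratohyalin granules of the granular layer and are then processed in the cornified layer. Prr9 codes for a small proline-rich protein from the same gene complex, and its role is less well known.

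Both groups were wild-type male C57BL/6J mice, aged 6 to 8 weeks, with a circular wound 1.8 cm across in the dorsal skin. TLR9agonist_LW wounds received 4 μg of ODN2395, a CpG oligodeoxynucleotide that activates Toll-like receptor 9, on days 0, 3 and 6, and WT_LW wounds received PBS per the labels, or a control oligonucleotide per a legend of the study. Healed skin was taken 2 days after the scab fell off, its epidermis and dermis were dissociated, and each group gave 1 library, made from wounds of more than 1 mouse. With 1 library per group there is no replicate, so no test between the groups was possible, and mouse, preparation and treatment cannot be told apart.

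The WT_LW matrix holds 99374045 UMIs in 12800 barcodes and the TLR9agonist_LW matrix 132339022 UMIs in 13751 barcodes, and 47 barcodes occur in both. After a cell filter and removal of predicted doublets, 10395 and 11811 cells were used, and 33 barcodes were still shared, none of them by keratinocytes. Keratinocytes were gated on keratins and cell adhesion genes, without the 7 members. The gate took 435 cells of WT_LW (4.18%) with 9173116 UMIs, a median of 18819 per cell, and 1224 cells of TLR9agonist_LW (10.4%) with 29472368 UMIs, a median of 23940 per cell. A looser gate took 570 and 1318 cells and a stricter one 301 and 1024, so many cells lie near the gate.

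All 7 genes lie on chromosome 3 in the epidermal differentiation complex, a cluster of genes for cornified envelope and keratohyalin proteins. In the GRCm38 annotation, joined by gene identifier, Lor lies at chr3:92080271-92083142 and Prr9 at chr3:92122204-92123947, both on the minus strand and 39.1 kb apart. Ivl follows at chr3:92570902-92573735 on the minus strand and Lce3d at chr3:92957390-92958505 on the plus strand. Flg2 at chr3:93197278-93221391, Flg at chr3:93273523-93293686 and Hrnr at chr3:93319749-93333570 stand side by side on the plus strand, with no other gene of the matrices between them. Each gene has 2 or 3 exons in its longest annotated transcript.

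The promoters of the members are shown because neighbouring genes of this complex differed in opposite directions between the libraries. AP-1, a factor of the Jun and Fos family, is known for its sites in promoters of this complex. The letters TGANTCA, a common form of its site, were searched on both strands in the 300 bases from 250 before to 50 after the RefSeq transcript start (GRCm38.p6). They occur in 5 of the 7 members, at -48 in Lor, -103 in Flg, -69 in Flg2, -116 in Ivl and -138 in Prr9, and in 7.81% of 32851 promoters. The letters TATAAA on the gene strand also occur in 5 of the 7 members (Lor, Flg, Hrnr, Ivl and Prr9) and in 8.32% of all promoters. No match for either was found in the Lce3d window. The 150 bases before the start are printed 5′ to 3′ for 2 members that were lower and 2 that were higher in TLR9agonist_LW, with both kinds of match in capitals. They lie at chr3:92083143-92083292 (Lor, minus strand), chr3:93273396-93273545 (Flg, plus), chr3:92123948-92124097 (Prr9, minus) and chr3:92957240-92957389 (Lce3d, plus). A match of letters is a description and does not show a bound site.
Lor: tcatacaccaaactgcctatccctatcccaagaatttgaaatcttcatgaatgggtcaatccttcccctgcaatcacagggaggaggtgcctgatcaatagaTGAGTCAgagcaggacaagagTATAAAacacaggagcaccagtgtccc
Flg: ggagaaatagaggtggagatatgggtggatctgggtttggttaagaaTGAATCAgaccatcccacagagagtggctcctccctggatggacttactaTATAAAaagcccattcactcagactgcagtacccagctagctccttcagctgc
Prr9: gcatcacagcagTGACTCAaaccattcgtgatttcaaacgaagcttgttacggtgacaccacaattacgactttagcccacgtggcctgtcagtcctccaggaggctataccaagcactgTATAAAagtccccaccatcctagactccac
Lce3d: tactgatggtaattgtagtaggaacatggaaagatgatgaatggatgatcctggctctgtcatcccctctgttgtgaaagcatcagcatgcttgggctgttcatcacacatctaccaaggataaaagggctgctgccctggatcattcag

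Keratinocytes were split by marker genes into late differentiated, early suprabasal, upper hair follicle, basal and cycling cells. Late differentiated cells were those with Krt1 and Krt10 over Krt5 and Krt14 and at least 0.05% of their UMIs on 9 late markers such as Cnfn, Asprv1, Casp14 and the kallikrein proteases Klk5 and Klk7. There were 102 such cells in WT_LW and 328 in TLR9agonist_LW, with medians of 12667.5 and 25321.5 UMIs. The other subsets held 76 and 198 early suprabasal, 68 and 61 upper hair follicle, 131 and 477 basal, and 58 and 160 cycling cells. The subsets kept the markers that defined them in both libraries, which largely follows from the gate and does not test the labels. For example, Krt10 stood at 22517 UMIs per 1000000 UMIs of the cells named (CPM) in late differentiated against 810 in basal cells of WT_LW, and at 12360 against 1192 in TLR9agonist_LW. Krt2, a keratin of mature interfollicular epidermis, had 6 and 5 UMIs in all keratinocytes, so it was nearly absent from both libraries. This does not show which layers were sampled. The late differentiated subset is a range of a marker share, not a cell type: with a minimum of 0.1% it held 55 and 212 cells.

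Over all keratinocytes, 4 members were at least 2-fold lower in TLR9agonist_LW (Lor, Flg, Flg2 and Hrnr), 2 were at least 2-fold higher (Prr9 and Lce3d), and Ivl lay between. Among 11093 genes with at least 50 UMIs in these cells, 16.6% were at least 2-fold lower and 2.72% at least 2-fold higher, and the median log2 ratio was -0.46. The members were picked for these values, so nothing is read from their count. All levels below are CPM, and all intervals are exact 95% intervals that cover counting error only.

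**Figure D1:**
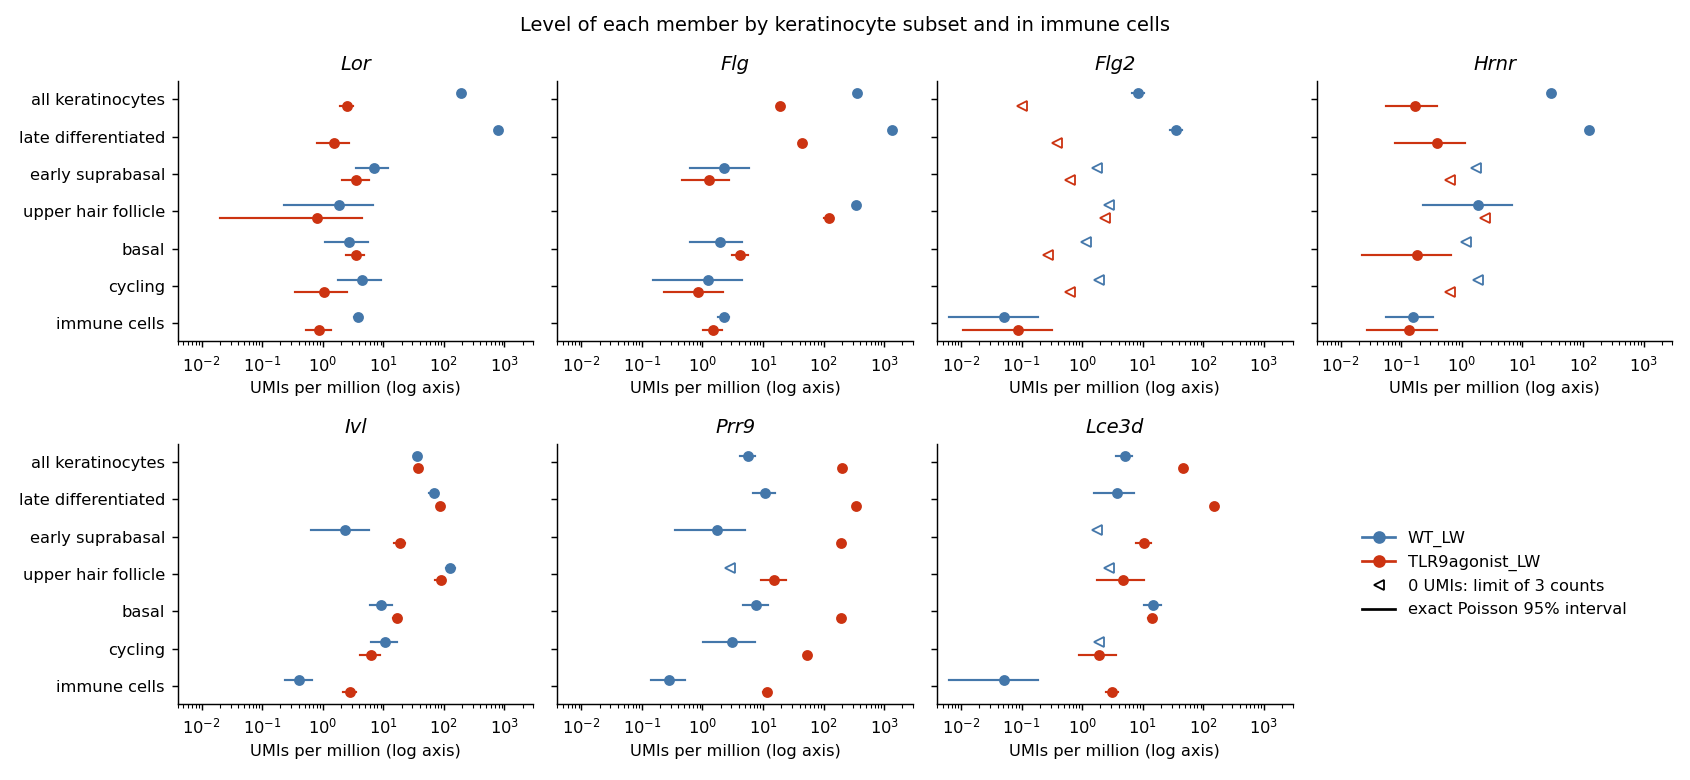
Level of each member (CPM, log axis) in all keratinocytes, in 5 keratinocyte subsets and in immune cells of WT_LW (blue) and TLR9agonist_LW (red). Points are the level of 1 library, lines exact Poisson 95% intervals, and open triangles mark 0 UMIs at the limit of 3 counts. Lor, Flg and Hrnr separate most in late differentiated cells. Prr9 is higher in TLR9agonist_LW in all 5 subsets, with the upper hair follicle level overlapping that of immune cells.

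Lor, the gene of the main envelope protein, had 1732 UMIs in WT_LW keratinocytes and 73 in those of TLR9agonist_LW. Its level was 189 CPM (180 to 198) against 2.48 (1.94 to 3.11), a 76.2-fold lower level with a log2 ratio of -6.25 (-6.61 to -5.91). Almost all of it lay in late differentiated cells of WT_LW, where it stood at 787 CPM (750 to 826) against 1.54 (0.79 to 2.69) in those of TLR9agonist_LW. In basal cells it stood at 2.70 (1.08 to 5.55) and 3.48 (2.46 to 4.77), intervals that overlap. Immune cells, which should lack the gene, held 3.80 (3.21 to 4.47) and 0.88 (0.54 to 1.36), a level that stands for free RNA. In WT_LW the intervals of the other 4 keratinocyte subsets overlapped that level. In TLR9agonist_LW the late differentiated, upper hair follicle and cycling intervals overlapped it, and early suprabasal (2.08 to 5.72) and basal cells lay above it.

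The difference in Lor rested on very few cells of WT_LW. One keratinocyte held 1575 of the 1732 UMIs, the next ones held 65, 25 and 11, and the median of the 42 cells with any Lor UMI was 1. No keratinocyte of TLR9agonist_LW held more than 6 Lor UMIs, in 55 cells with any. Without the cell with most Lor in each library the level was 17.2 against 2.27 CPM (log2 ratio -2.92, -3.35 to -2.50). The stricter gate asks for more adhesion genes. It left out the WT_LW cell with 1575 Lor UMIs and also the cells with 65 and 25. With it the log2 ratio was -0.90, which is less than 2-fold lower. In late differentiated cells the stricter gate gave -1.59, with 56 such cells left in WT_LW and 289 in TLR9agonist_LW, against 102 and 328 before.

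Further WT_LW cells with much Lor stood outside the keratinocyte gate. The 3 cells with most Lor of the whole library held 1575, 1374 and 292 UMIs of it, together 87.5% of the 3702 Lor UMIs in all WT_LW cells used. The first had 31835 UMIs, of which Lor made up 4.95% and Flg 5.94%, with 1048 Krt1 and 1075 Krt10 UMIs. The second had 18792 UMIs, 7.31% of them Lor, and only 10 Krt1 and 9 Krt10 UMIs, and the third had 2678 UMIs, 10.9% of them Lor, with no Krt1 or Krt10. Late markers took 5.20% and 6.80% of the UMIs of the latter cells, and both held UMIs of Lce1a1, a late cornified envelope gene of another group (50 and 101).

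A wider gate, chosen after these cells had been seen, also took cells with few keratin UMIs and at least 1% of UMIs on at least 3 late markers. It added 5 WT_LW cells with 1690 Lor UMIs and no TLR9agonist_LW cell, where 0 of 11811 cells allows a share of up to 0.0254% by the limit of 3 counts. With it the log2 ratio of Lor in keratinocytes was -7.23. Over all deposited barcodes, with no gate, Lor had 3766 UMIs (37.9 CPM) in WT_LW and 183 (1.38 CPM) in TLR9agonist_LW, although the latter held more keratinocytes. Whether the treated library held fewer cells of the last stage or less Lor per cell of that stage cannot be told apart.

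**Figure D2:**
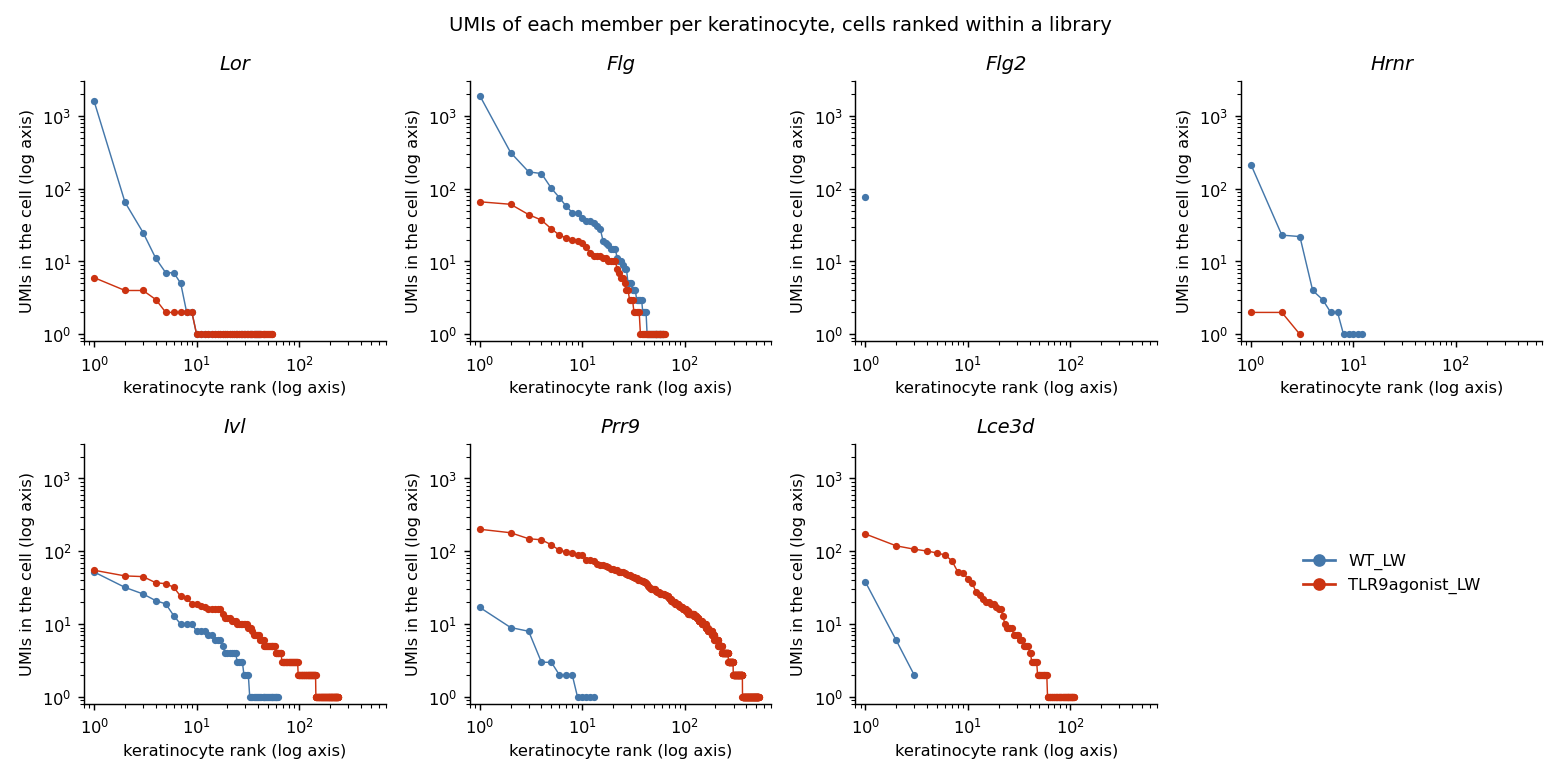
UMIs of each member in single keratinocytes (y, log axis) against the rank of the cell within its library (x, log axis), with WT_LW in blue and TLR9agonist_LW in red; only cells with a UMI are drawn. The top WT_LW cell stands far above the others for Lor, Flg, Flg2 and Hrnr, whereas Prr9 runs over 528 cells of TLR9agonist_LW.

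Flg, the profilaggrin gene, had 3289 UMIs in WT_LW keratinocytes, 359 CPM (346 to 371), and 551 in those of TLR9agonist_LW, 18.7 CPM (17.2 to 20.3). The log2 ratio was -4.26 (-4.39 to -4.13), a 19.2-fold lower level. The same WT_LW cell that led for Lor held 1891 of the Flg UMIs, but the rest was spread more widely than for Lor. In WT_LW 30 keratinocytes and in TLR9agonist_LW 26 held 5 or more Flg UMIs, and the highest TLR9agonist_LW cells held 66, 61 and 44. Without the top cell of each library the level was 153 against 16.5 CPM (log2 ratio -3.22), and the stricter gate gave a log2 ratio of -2.93.

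Unlike Lor, Flg was also present in upper hair follicle cells, at 344 CPM (310 to 381) in WT_LW and 121 (102 to 141) in TLR9agonist_LW. Its UMIs lay in 10 of the 68 upper hair follicle cells of WT_LW (14.7%) and 12 of the 61 of TLR9agonist_LW (19.7%), shares with overlapping intervals. The log2 ratio there was -1.51 (-1.79 to -1.23), against -4.94 (-5.10 to -4.77) in late differentiated cells, where the levels were 1344 and 43.9 CPM. The late differentiated value was -3.72 without the top cell of each library and -2.88 with the stricter gate. In early suprabasal, basal and cycling cells Flg lay between 0.85 and 4.21 CPM in both libraries, and immune cells held 88 UMIs (2.26) in WT_LW and 34 UMIs in TLR9agonist_LW.

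Flg2 had 77 UMIs in WT_LW keratinocytes, all in the cell that led for Lor and Flg, and 0 in TLR9agonist_LW, where the limit of 3 counts is 0.102 CPM. The level was at least 82.5-fold lower, from 1 cell. Over all cells used, Flg2 had 122 UMIs in 7 cells of WT_LW, 118 of them in the 3 cells with most Lor, and 5 UMIs in 5 cells of TLR9agonist_LW.

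Hrnr, which codes for hornerin, had 274 UMIs in 12 WT_LW keratinocytes and 5 in 3 TLR9agonist_LW keratinocytes, or 29.9 (26.4 to 33.6) and 0.17 (0.06 to 0.40) CPM. The top WT_LW cell, again the same, held 213 of them, and the next held 23 and 22. Without the top cell of each library 61 and 3 UMIs remained (log2 ratio -6.03, -8.35 to -4.42), and the stricter gate gave -3.99. The 3 cells with most Lor held 83.9% of the Hrnr UMIs of WT_LW, but 13.5% of the Ivl UMIs and none of the Prr9 UMIs. The lower members thus shared their top cell in WT_LW. That cell also led for Ivl, with 52 UMIs, but held none of Prr9 or Lce3d.

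Ivl, which codes for the early scaffold protein involucrin, had nearly the same level in the keratinocytes of both libraries. It had 328 UMIs in 62 WT_LW cells and 1088 in 241 TLR9agonist_LW cells, or 35.8 (32.0 to 39.8) and 36.9 (34.8 to 39.2) CPM, a log2 ratio of 0.05 (-0.13 to 0.23). No single cell decided this value: the top cells held 52 and 55 UMIs, and without them the log2 ratio was 0.22. Relative to the median gene, which was lower in TLR9agonist_LW, it was 0.51.

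Within the subsets Ivl differed in both directions. It was lower in TLR9agonist_LW in upper hair follicle cells, at 127 (106 to 150) against 88.1 (72.5 to 106) CPM, and higher in early suprabasal cells, at 2.30 (4 UMIs) against 18.7 (89 UMIs). In basal cells it stood at 9.24 (5.92 to 13.8) against 17.0 (14.7 to 19.6) and in late differentiated cells at 67.9 (57.4 to 79.8) against 86.2 (79.8 to 93.0). In WT_LW the upper hair follicle level was above that of late differentiated cells, and in TLR9agonist_LW the intervals of these subsets overlapped. The upper hair follicle log2 ratio of Ivl, -0.52, was near the median of all genes in keratinocytes, -0.46. The share of upper hair follicle cells with an Ivl UMI was 36.8% in WT_LW and 47.5% in TLR9agonist_LW, with overlapping intervals, so it did not fall. The late differentiated log2 ratio, 0.34, turned to -0.39 with the higher minimum of late markers and to -0.38 in thinned cells, and was 1.25 with the stricter gate.

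Prr9 was almost absent from WT_LW and widespread in TLR9agonist_LW. It had 51 UMIs in 13 of 435 WT_LW keratinocytes and 6015 in 528 of 1224 TLR9agonist_LW keratinocytes, or 5.56 (4.14 to 7.31) and 204 (199 to 209) CPM. The level was 36.7-fold higher, a log2 ratio of 5.20 (4.80 to 5.63). In TLR9agonist_LW 160 keratinocytes held 10 or more Prr9 UMIs, against 1 in WT_LW, and the top cell held 201, which is 3.34% of the total. Without the top cells the log2 ratio was 5.73.

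The higher Prr9 level was not limited to late cells. In TLR9agonist_LW Prr9 stood at 340 CPM (327 to 353) in late differentiated, 197 (185 to 210) in early suprabasal and 197 (188 to 205) in basal cells, and the intervals of the latter subsets overlapped. Lower levels were found in cycling cells (53.9, 47.5 to 61.0) and in upper hair follicle cells (15.1, 9.08 to 23.6), the latter overlapping the level of immune cells (11.5). In WT_LW the values ran from 0 of 1072957 UMIs in upper hair follicle cells to 10.6 CPM (6.74 to 15.9) in late differentiated cells. Prr9 was thus higher in TLR9agonist_LW in each of the 5 subsets, but in upper hair follicle cells the difference cannot be told apart from free RNA.

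Lce3d belongs to the Lce3 group, whose human counterparts are known to be induced when the skin barrier is injured. It had 46 UMIs in 3 WT_LW keratinocytes and 1372 in 109 TLR9agonist_LW keratinocytes, or 5.01 (3.67 to 6.69) and 46.6 (44.1 to 49.1) CPM, a log2 ratio of 3.21 (2.79 to 3.67). One basal cell held 38 of the 46 WT_LW UMIs, and without the top cell of each library the levels were 0.88 and 40.7 CPM (log2 ratio 5.53, 4.55 to 6.75). In TLR9agonist_LW the gene was concentrated in late differentiated cells, at 148 CPM (139 to 156) against 3.70 (1.60 to 7.28) in WT_LW. Its basal level, 14.3 (12.1 to 16.7) CPM, overlapped that of early suprabasal cells, 10.3 (7.62 to 13.6). Upper hair follicle and cycling cells held 4.76 and 1.91 CPM, near the 3.12 of immune cells.

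Because the libraries could hold different stages of differentiation, suprabasal cells were also compared in bins of their share of late-marker UMIs. Cycling and upper hair follicle cells were left out, and the bins were set after the markers had been seen. The highest bin has no upper limit, and late markers such as Klk5 and Cdsn themselves differed between the libraries, so the bins do not match stage. In the highest bin, 0.3% or more, there were 17 WT_LW cells with a median of 7045 UMIs and 64 TLR9agonist_LW cells with a median of 17370.5. Lor was detected in 9 of the 17 WT_LW cells (52.9%, 27.8 to 77.0) and in 3 of the 64 TLR9agonist_LW cells (4.69%, 0.98 to 13.1), each with 1 UMI, although the WT_LW cells were shallower. Hrnr was detected in 7 of 17 and 1 of 64 cells, and Flg in 11 of 17 and 21 of 64, the last with overlapping intervals.

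Flg2 was detected in 1 of 17 and 0 of 64 cells. In the same bin Prr9, Lce3d and Ivl took the opposite or no direction. Prr9 was detected in 0 of the 17 WT_LW cells, which allows a share of up to 17.6% by the limit of 3 counts (19.5% by the exact interval), and in 26 of the 64 TLR9agonist_LW cells (40.6%, 28.5 to 53.6). Lce3d was detected in 1 of 17 (5.88%, 0.15 to 28.7) and 22 of 64 cells (34.4%, 22.9 to 47.3). Ivl was detected in 9 of 17 (52.9%) and 39 of 64 (60.9%). The intervals overlapped for Lce3d and for Ivl, and the greater depth of the TLR9agonist_LW cells in this bin favours detection there. In the bin from 0.1% to 0.3% Flg was already present in 23 of 39 WT_LW cells (59.0%) and in 11 of 150 TLR9agonist_LW cells (7.33%), whereas Lor was at 4 of 39 and 5 of 150. The bins of WT_LW hold few cells, and the highest has under 20.

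**Figure D3:**
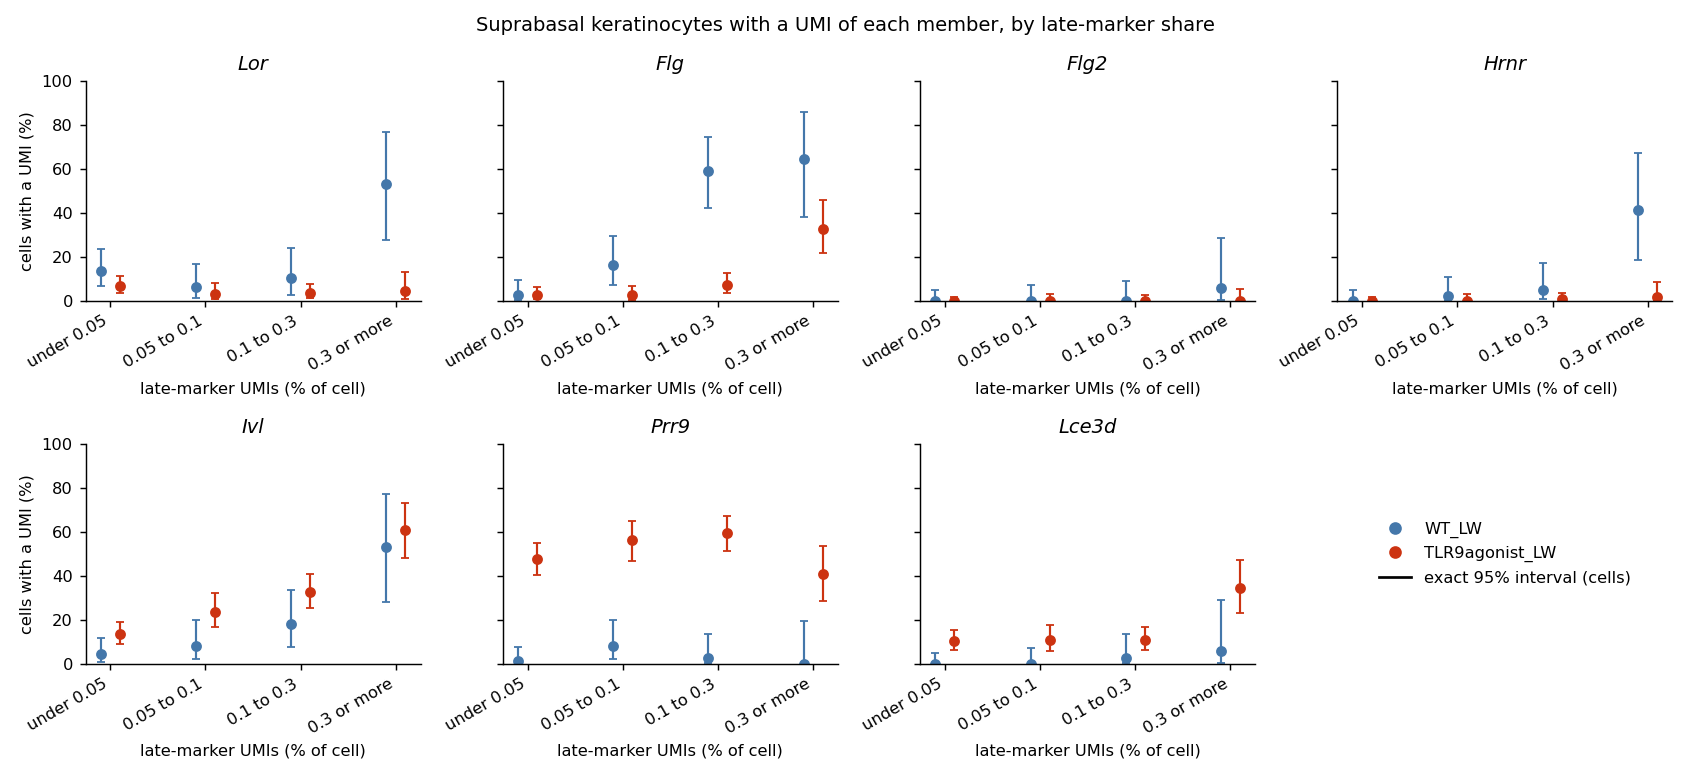
Share of suprabasal keratinocytes with at least 1 UMI of each member (y, percent) by the share of the cell's UMIs on late markers (x, 4 bins), with exact 95% intervals over cells. WT_LW (blue) is above TLR9agonist_LW (red) for Lor, Flg and Hrnr in the highest bin, and TLR9agonist_LW is above for Prr9 in every bin.

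Detection was also compared at equal depth, in cells thinned to 1500 UMIs. In late differentiated cells Flg was then found in 29.7% of 101 WT_LW and 3.96% of 328 TLR9agonist_LW cells, against 40.6% and 10.7% before thinning. Prr9 was found in 2.97% and 23.5% (4.95% and 54.6% before) and Lce3d in 0 of 101 WT_LW cells, which allows a share of up to 2.97% by the limit of 3 counts (3.59% by the exact interval), and 21 of the TLR9agonist_LW cells (1.98% and 15.2% before). Lor was found in 5.94% and 0.30% (15.8% and 3.66% before), the last being 1 cell. Ivl was at 7.92% and 8.54%. In immune cells, with medians of 5489 and 6531 UMIs before thinning, the shares thinned in the same way were 0.62% and 0.10% for Lor, 0.36% and 0.35% for Flg and 0.02% and 2.35% for Prr9.

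Free RNA gave a view of the members that did not rest on the gated keratinocytes. Immune cells of WT_LW held 148 Lor UMIs in 146 of 5420 cells, and those of TLR9agonist_LW 20 in 19 of 2939 cells, or 3.80 (3.21 to 4.47) and 0.88 (0.54 to 1.36) CPM. Prr9 stood there at 0.28 and 11.5 CPM, Lce3d at 0.05 and 3.12, and Ivl at 0.41 and 2.77. Krt10 in the same immune cells was higher in TLR9agonist_LW (307 against 69.3 CPM), so the lower free Lor stood beside more free keratin RNA. Per 1000 Krt10 UMIs, Lor was at 54.9 in immune cells of WT_LW and 2.86 in those of TLR9agonist_LW, and at 22.0 and 0.46 in keratinocytes. Flg was at 32.6 and 4.87 in immune cells, Ivl at 5.93 and 9.02 and Prr9 at 4.08 and 37.4. Without the scaling to Krt10, free Flg differed less, with a log2 ratio of -0.60 (-1.21 to -0.01). Hrnr and Flg2 had 6 or fewer UMIs in the immune cells of either library, too few to compare.

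**Figure D4:**
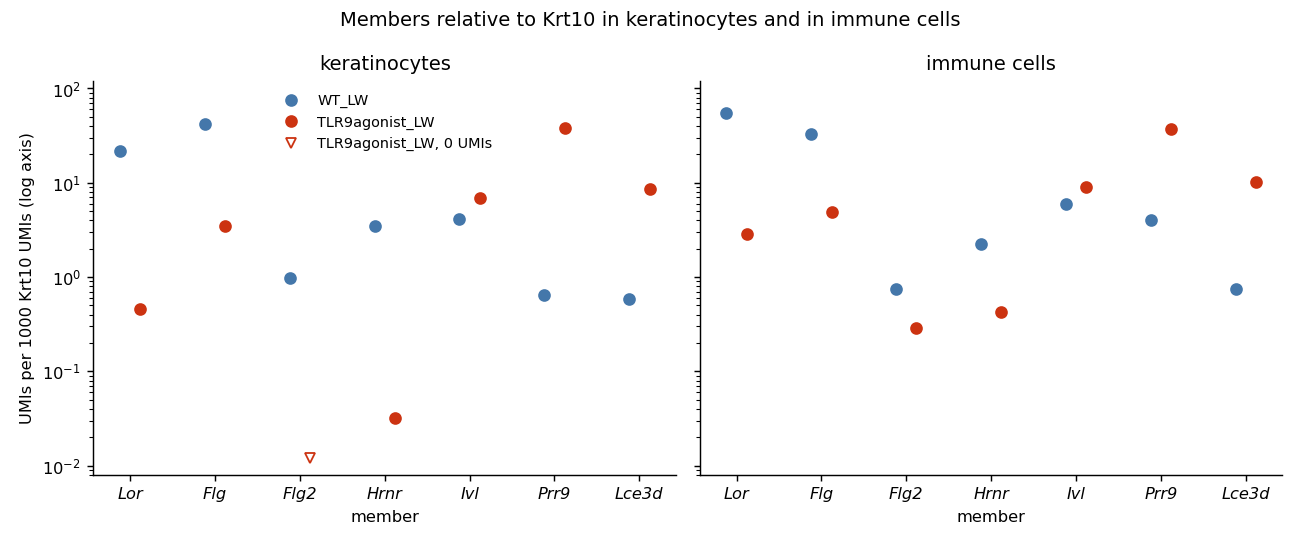
UMIs of each member per 1000 Krt10 UMIs (y, log axis) in keratinocytes (left) and in immune cells (right) of WT_LW (blue) and TLR9agonist_LW (red); the open triangle marks Flg2 with 0 UMIs. Lor and Flg are lower, and Prr9 and Lce3d higher, in TLR9agonist_LW in both panels.

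Cells holding several members were counted at 5 or more UMIs of each. Of 7 WT_LW keratinocytes with 5 or more Lor UMIs, all 7 also had 5 or more of Flg, 3 of Hrnr and 3 of Ivl, and none of Prr9. In TLR9agonist_LW 230 keratinocytes had 5 or more Prr9 UMIs and 39 had 5 or more of Lce3d, and 19 had both. Of the 26 with 5 or more Flg UMIs, 12 also had that many of Ivl, 7 of Lce3d and 5 of Prr9, and of the 30 such cells of WT_LW, 8 had that many of Ivl, 1 of Lce3d and none of Prr9. These differences were not tested.

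Along the 1253.3 kb from Lor to Hrnr, 32 of the 57 genes had at least 10 UMIs in keratinocytes. Besides the members, 17 of 25 were at least 2-fold higher in TLR9agonist_LW, 1 was at least 2-fold lower and 7 lay between. Of the 17, 5 had under 10 UMIs in WT_LW and so reached the minimum only through TLR9agonist_LW. Over all 13697 genes with at least 10 UMIs, 3.86% were at least 2-fold higher and 20.9% at least 2-fold lower. Lor and the run of Flg2, Flg and Hrnr, at the opposite ends of this stretch, were lower, and Prr9, with 2 genes between it and Lor, was higher. Among genes between them with at least 10 UMIs in WT_LW, most Sprr2 genes, Lce3c and Lce3f were higher as well.

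**Figure D5:**
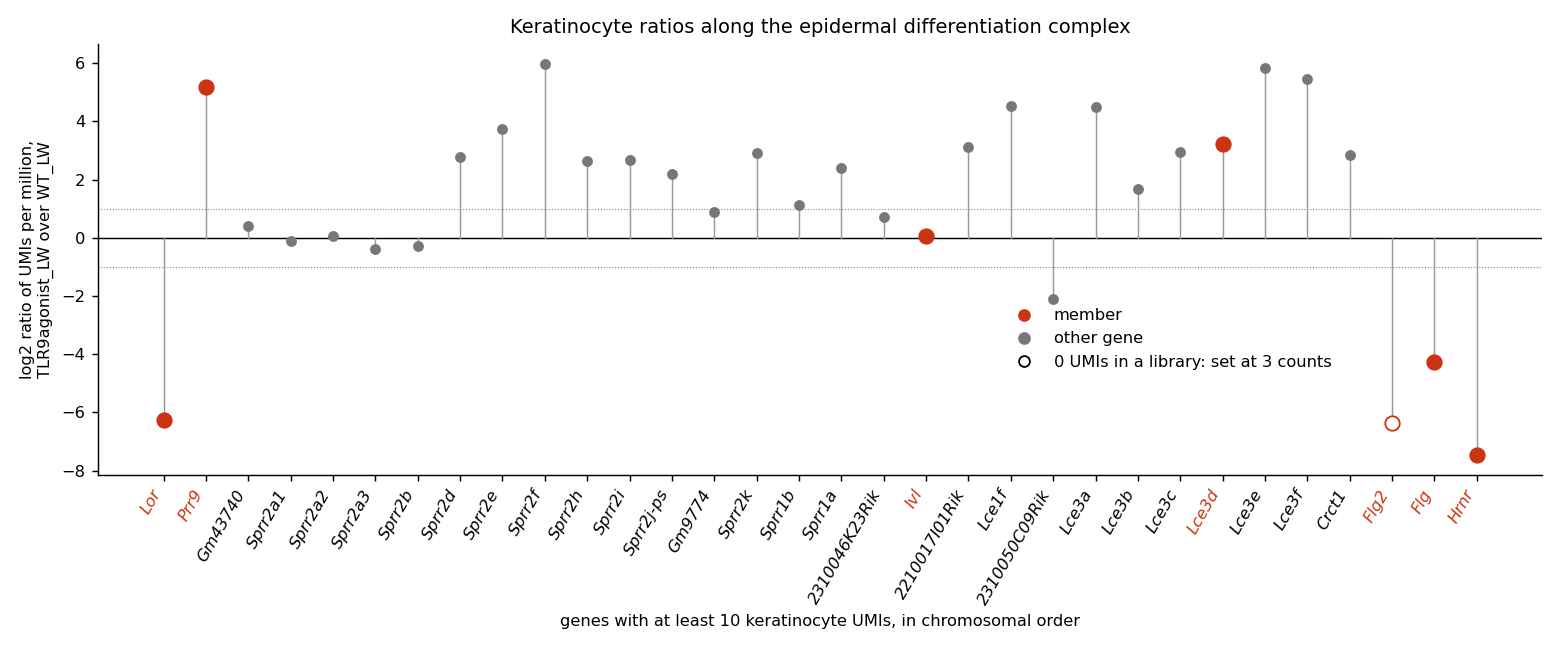
Log2 ratio of keratinocyte CPM, TLR9agonist_LW over WT_LW, for the 32 genes with at least 10 UMIs in chromosomal order from Lor to Hrnr, members in red; dotted lines mark 2-fold and the open circle is Flg2, set at 3 counts. Lor, Flg2, Flg and Hrnr at the ends lie below the lower line, and Prr9, Lce3d and most Sprr2 and Lce3 genes lie above the upper line. Lce3a, Lce3b and Lce3e reached the minimum only through TLR9agonist_LW.

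The other genes of the cornified envelope were read from lists. Of the Sprr family, 13 of 15 genes had at least 50 UMIs in all keratinocytes, 9 were at least 2-fold higher there and none was at least 2-fold lower. The median log2 ratio was 2.39, beside -0.46 over all genes, of which 2.72% were at least 2-fold higher. Sprr2d stood at 262 and 1799 CPM, Sprr2f at 15.3 and 968 and Sprr1b at 531 and 1150, whereas Sprr2a3 stood at 252 and 192. Of the Lce family without Lce3d, 5 of 20 genes passed the same minimum but Lce1f, Lce3a, Lce3e and Lce3f, with 1, 1, 2 and 12 UMIs in WT_LW, passed it through TLR9agonist_LW alone, so nothing is read from their direction. Lce3c, with 50 UMIs in WT_LW, stood at 5.45 and 42.3 CPM, and Lce3f at 1.31 and 57.1. Over all deposited barcodes Lce1f stood at 0.99 and 0.81 CPM. Genes of the Sprr2 and Lce3 groups are near copies of each other, and how the counting split reads between them is not known, so values of single genes there are uncertain.

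Of 7 other genes of the complex, 3 had at least 50 UMIs. Crct1, a cysteine-rich gene next to the Lce3 group, stood at 35.9 and 261 CPM. Rptn, which codes for the S100 fused-type protein repetin, stood at 35.5 and 12.7, and Tchh, for the related trichohyalin, at 15.5 in both libraries. The fused-type genes were thus not all lower.

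Of 15 other envelope and cornified-layer proteins, all with at least 50 UMIs, 4 were at least 2-fold lower, none was higher, and 11 lay between. Their median log2 ratio of -0.52 was near the -0.46 of all genes, of which 16.6% were at least 2-fold lower. The 4 were Cdsn, which codes for corneodesmosin, at 9.70 and 2.48 CPM, Lypd5 at 18.2 and 5.16, Calml3 at 182 and 89.0, and Cst6, for cystatin M/E, at 2175 and 967. Cst6 is also a marker that set the upper hair follicle subset, which made up 15.6% of WT_LW and 4.98% of TLR9agonist_LW keratinocytes. In late differentiated cells Cst6 stood at 649 and 375 CPM, less than 2-fold lower. Whether its ratio follows the share of that subset was not tested. The early differentiation genes Krtdap and Sbsn stood at 3775 and 3914 and at 931 and 1038. Of 17 cross-linking and processing enzymes, 15 had enough UMIs, 2 were at least 2-fold lower and none was higher, and the median of -0.55 was also near that of all genes. The lower ones were the kallikrein proteases Klk5, at 38.6 and 7.13 CPM, and Klk6, at 47.0 and 10.8. Tgm1, the transglutaminase that anchors the envelope, stood at 28.8 and 56.9, and Casp14, which takes part in filaggrin breakdown, at 80.2 and 57.7. Of 5 early suprabasal genes 4 had enough UMIs and none passed 2-fold (median -0.76), among them Krt1 at 10709 and 5966 and Krt10 at 8583 and 5363.

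Of 14 transcription factors of epidermal differentiation, 3 were at least 2-fold higher and 1 at least 2-fold lower (median log2 ratio 0.33). Over all genes with at least 50 UMIs, 2.72% were at least 2-fold higher and 16.6% lower, with a median of -0.46. Prdm1, which codes for the repressor Blimp-1, stood at 21.7 and 172 CPM, Grhl3, for a grainyhead-like factor of the barrier, at 29.7 and 94.9, and Gata3 at 86.7 and 179. Klf4, a factor of barrier formation, stood at 770 and 954.

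In late differentiated cells, where Lor and Flg separated most, other late genes differed in both directions. Among 7538 genes with at least 50 UMIs in these cells, 12.3% were at least 2-fold lower and 5.37% at least 2-fold higher. Cnfn, which codes for cornifelin, stood at 495 and 441 CPM, Asprv1, for the protease that cleaves profilaggrin, at 677 and 996, and Klk7 at 173 and 211. Klk5 stood at 94.7 and 9.35 and Cdsn at 18.0 and 3.33. These genes are themselves among the 9 late markers whose summed share set the subset, so their levels partly follow from the gate. Among genes outside these markers, Lypd5 stood at 38.8 and 9.61, Calml3 at 493 and 190 and Rptn at 148 and 41.6. Tgm1 stood at 61.9 and 127 and Crct1 at 133 and 706. Genes of the Sprr family differed in both directions in these cells. Sprr2b stood at 68.4 and 12.9 and Sprr2a3 at 411 and 191, whereas Sprr2d stood at 630 and 3379 and Sprr2f at 35.6 and 1983.

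The genes most like each member were named by the Pearson correlation of log2(CPM + 1) over the 10 profiles of 5 subsets in 2 libraries, among 8222 genes with at least 200 UMIs. The profiles share libraries and depth, and the Lor and Hrnr profiles rest on few cells, so the values are a description. Lor was most like Hrnr (r = 0.93), Wfdc21 (0.91) and Pef1 (0.91), and Hrnr was most like Lor, Fabp4 (0.93) and Wfdc21 (0.91). Flg was most like Klk5 (0.95), Dkkl1 (0.93) and Wfdc5 (0.93), and its correlation with Lor was 0.51. Prr9 was most like Hs3st1 (0.98), Ccdc71l (0.97) and Ubap1 (0.97), and Lce3d was most like Lce3c (0.97), Mbp (0.92) and Sprr2h (0.92). The correlation of Prr9 with Lce3d was 0.81. Ivl was most like Desi1 (0.95), Krt23 (0.95) and Serpinb8 (0.93), and stood closer to Flg (0.85) than to Prr9 (0.06).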

How the data were processed

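Healed dorsal wound skin was profiled with 10x Genomics 3′ single-cell RNA-seq in 2 libraries, WT_LW and TLR9agonist_LW. The deposited values are counts of UMIs that the authors did not normalize, made with Cell Ranger 4.0.0 per the file headers. The submitters' processing notes also name fastp, Seurat and mm9; the gene identifiers of 27645 of 27998 rows are in the GENCODE annotation of GRCm38, from which positions were taken, and promoters came from RefSeq (GRCm38.p6). The members and the gene lists were chosen with earlier results of these data known.

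Barcodes were kept that had 500 or more UMIs, 300 or more genes and no more than 15% mitochondrial UMIs, and the cells with the highest Scrublet scores (scanpy 1.11.5) were removed at 0.8% per 1000 cells, 1048 of WT_LW and 1395 of TLR9agonist_LW. Keratinocytes had at least 1% of UMIs on 16 keratinocyte markers, at least 5 of 9 adhesion genes, at most 0.5% immune and at most 1% fibroblast UMIs. Subsets were assigned in the order cycling (at least 3 of 6 genes), upper hair follicle (at least 0.5% marker UMIs and 0.1% Krt79), late differentiated (as described, with at least 2 late genes), early suprabasal and basal. The thresholds, and the removal of Lypd3 from the late markers, were set after marker values had been seen. Immune cells had at least 3 of 9 immune markers and under 1% keratinocyte and fibroblast UMIs.

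UMIs were summed per subset and library and divided by the subset's total. Intervals at 95% were exact Poisson for levels, exact given the total count for ratios and Clopper-Pearson for shares; a count of 0 was set at 3 counts. They cover counting error only. With 1 library per group no test was run. The result of 1 gene of the lists is not reported here. The ratio script was tested on simulated data. Text names the members, the genes of the lists and, for each member with at least 200 UMIs, the 3 genes with the most similar profile. Alternatives were a stricter cell filter, doublets kept, stricter and looser gates, keratinocytes from Leiden clusters (leidenalg 0.10.2), equal weight per cell, median-centred ratios, subtraction of the immune-cell level, thinning, a higher late-marker minimum and a lower gene minimum; 2 more were added after the data had been seen.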

Additional observations from a re-analysis of the deposited data

Results flagged for a closer look

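Ivl was noted because its ratio had opposite signs in subsets of the same keratinocytes, with counting intervals that exclude 0. The log2 ratio of TLR9agonist_LW over WT_LW was -0.52 in upper hair follicle cells, and 0.34 in late differentiated, 3.02 in early suprabasal and 0.88 in basal cells. The upper hair follicle value was near the median of all genes in keratinocytes (-0.46). The share of those cells with an Ivl UMI was 36.8% in WT_LW and 47.5% in TLR9agonist_LW. The difference between subsets was not tested, since each group is 1 library.

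Prr9, Lce3d and Ivl were also higher in TLR9agonist_LW in barcodes outside the cells used, which served the report only in the total over all deposited barcodes. In the barcodes left out by the cell filter, Prr9 stood at 119 CPM in TLR9agonist_LW and 8.86 in WT_LW, Ivl at 17.2 and 2.39, and Lce3d at 24.0, with 0 UMIs in WT_LW. In the predicted doublets, Prr9 stood at 48.7 and 10.5, Ivl at 8.95 and 1.12, and Lce3d at 23.1, with 0 UMIs in WT_LW. Of the 113 Prr9 UMIs in WT_LW doublets, 91 lay in 1 of the 4 doublets with any, more than in all WT_LW cells used together (83). Lor and Flg differed less here than in keratinocytes. In the barcodes left out the log2 ratio was -1.09 (-3.53 to 0.76) for Lor and -0.63 (-1.43 to 0.11) for Flg. In the doublets it was -1.49 (-2.17 to -0.82) for Lor and 0.14 (-0.52 to 0.82) for Flg.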

How the results depend on the processing

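No paired analysis was possible because each group has 1 library. Of 157 member ratios recomputed under 12 alternative settings, 155 stayed on their side of the 2-fold limits and none of those past 2-fold changed sign. The exceptions came from the stricter gate, which gave -0.90 for Lor in keratinocytes and 1.25 for Ivl in late differentiated cells. It counted 2 members as at least 2-fold lower (Flg and Hrnr) in place of 4. This gate left out the WT_LW cell with most Lor, and also the WT_LW cells with 65 and 25 Lor UMIs. Without the top cell of each library alone, Lor stayed at -2.92. Flg2 had no value under that gate or without its top cell, so 3 members were lower without top cells; the number of higher members was 2 under all 11 settings applied to it. Over these settings the log2 ratios in keratinocytes ran from -8.22 to -0.90 for Lor, -4.67 to -2.93 for Flg, -8.24 to -3.99 for Hrnr, 4.10 to 5.73 for Prr9 and 2.96 to 5.53 for Lce3d. With genes of at least 10 UMIs, 1 early suprabasal gene (Krt2) was at least 2-fold lower in place of 0. The ratios of Flg2 and Hrnr rest on the fewest UMIs in TLR9agonist_LW keratinocytes, 0 and 5. In WT_LW 1 keratinocyte held all 77 Flg2 UMIs and 213 of the 274 Hrnr UMIs.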

Other observations

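The 14 genes of the Lce1 group of late cornified envelope genes had 507 UMIs in the WT_LW cells used, 395 of them in the 3 cells with most Lor. In TLR9agonist_LW they had 233 UMIs, with at most 13 in a cell. The 6 Lce3 genes, Lce3d included, had 158 UMIs in the WT_LW cells used, 14 of them in those 3 cells, and 5902 in the TLR9agonist_LW cells used, where 88 cells held 5 or more. Over all cells used, the Lce1 group stood at 5.92 CPM in WT_LW, most of it from those 3 cells, and 2.10 in TLR9agonist_LW. In gated keratinocytes the order was the other way, at 0.65 CPM (6 UMIs) and 3.83 (113 UMIs). The Lce3 group stood at 1.84 and 53.1 CPM over all cells used and at 12.4 and 162 in keratinocytes. Whether the Lce1 and Lce3 groups mark different stages of the same cells was not tested.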
